A study of Drosophila melanogaster with 12 samples.

Results

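The glutathione S-transferase (GST) genes of Drosophila melanogaster were followed across the head libraries of a study of human TDP-43 (hTDP-43), the RNA-binding protein that aggregates in amyotrophic lateral sclerosis. Members were the rows of the RNA-seq count table whose symbol begins with Gst, followed by D, E, S, T, O or Z and a digit. This rule took 35 of 17075 rows and used no measured value. The delta class (GstD) had 11 members, the epsilon class (GstE) 14, the theta class (GstT) 4, the omega class (GstO) 3, the zeta class (GstZ) 2 and the sigma class (GstS) 1. The RNA-seq compared 3 genotypes with 2 libraries each, from heads of flies 8 to 10 days after eclosion. Repo/TDP43 flies carried the hTDP-43 transgene and the pan-glial Repo driver, Elav/TDP43 flies carried the same transgene and the pan-neuronal Elav driver, and TDP43/2U flies carried the transgene with no driver. All 3 genotypes therefore held the transgene, and the controls held no Gal4 driver. The strain in the labels is 2U, and the study's methods describe stocks backcrossed to a white-eyed background. A separate small RNA experiment set 3 Repo/TDP43 libraries against 3 Repo/2U libraries, whose flies carried the glial driver and no transgene.

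GSTs are enzymes that join the tripeptide glutathione to reactive or toxic compounds, and several of them also reduce peroxides. In flies the delta and epsilon classes have expanded in clusters of neighbouring genes and are best known for insecticide resistance and the response to oxidative stress. Part of that response runs through CncC, the fly counterpart of the mammalian factor Nrf2, which works with a small Maf partner and is held back by Keap1. The omega, sigma, theta and zeta classes are shared with mammals and include enzymes of basic metabolism.

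Library totals lay between 22476024 and 41150009 counts, and the 35 members together took 0.0701% to 0.0825% of them. The white gene (w), a marker carried by many fly transgenes, was at 233 and 244 CPM (counts scaled to a common library size) in Repo/TDP43 heads, at 73.6 and 70.4 CPM in Elav/TDP43 heads, and at 2.59 and 2.46 CPM in TDP43/2U heads, so the libraries of each genotype resembled each other in this marker. The 2 TDP43/2U libraries, S14 and S15, differed from each other more than the libraries of the other genotypes did: the chi-square over all genes divided by its degrees of freedom was 37.6 between them, 6.28 between the Repo/TDP43 libraries and 10.6 between the Elav/TDP43 libraries. CPM below are scaled by TMM factors over the 6 libraries and are not divided by transcript length, so levels are compared between libraries and not between genes. Delta and epsilon genes are paralogs, and how reads that match several of them were assigned is not given in the sources used here, so the share of counts of each close paralog is uncertain. In whole heads, fewer cells of a type and less RNA per cell cannot be told apart.

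Repo/TDP43 heads differed from TDP43/2U heads in GST genes of the delta and epsilon classes, in both directions. These controls lack the driver, so effects of the driver line and of glial hTDP-43 cannot be told apart. Of 33 members tested with edgeR's quasi-likelihood test, 6 were higher and 4 lower in Repo/TDP43 heads at a Benjamini-Hochberg adjusted p under 0.05. These 10 genes were 30.3% of the members tested, beside 27.8% of all 13507 features tested, 15.3% higher and 12.5% lower, so the family as a whole was called about as often as the rest of the table. The classes are given in turn, and no difference between them was tested. In the delta class 5 of 9 tested members were higher and 1 was lower (66.7% called), with a median log2 fold change of 1.47. GstD5, GstD6 and GstD8 passed the count filter only through their Repo/TDP43 libraries, so they could not have entered as lower. The class count and median are thus partly set by the filter. With at least 10 counts required in every library these genes dropped out, while GstD2, GstD3 and GstD10 stayed higher and GstD9 lower. In the epsilon class 1 of 14 was higher and 3 were lower (28.6% called, near the share over all features), with a median of -0.45. The median over all features tested was 0.00. The 4 smaller classes gave 0 calls among their 10 members with edgeR, of which 2, GstO2 and GstZ2, had an unadjusted p under 0.05 and were the members of these classes that DESeq2 called, both lower. The number of calls rested on both Repo/TDP43 libraries: it was 4 without S05 and 4 without S06. It was 15 without S14 and 12 without S15 of TDP43/2U. Counts of higher against lower calls also moved with the scaling, and were 7 and 1 when scaled by library size alone, 7 and 2 under upper-quartile factors and 5 and 6 with DESeq2.

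**Figure D1:**
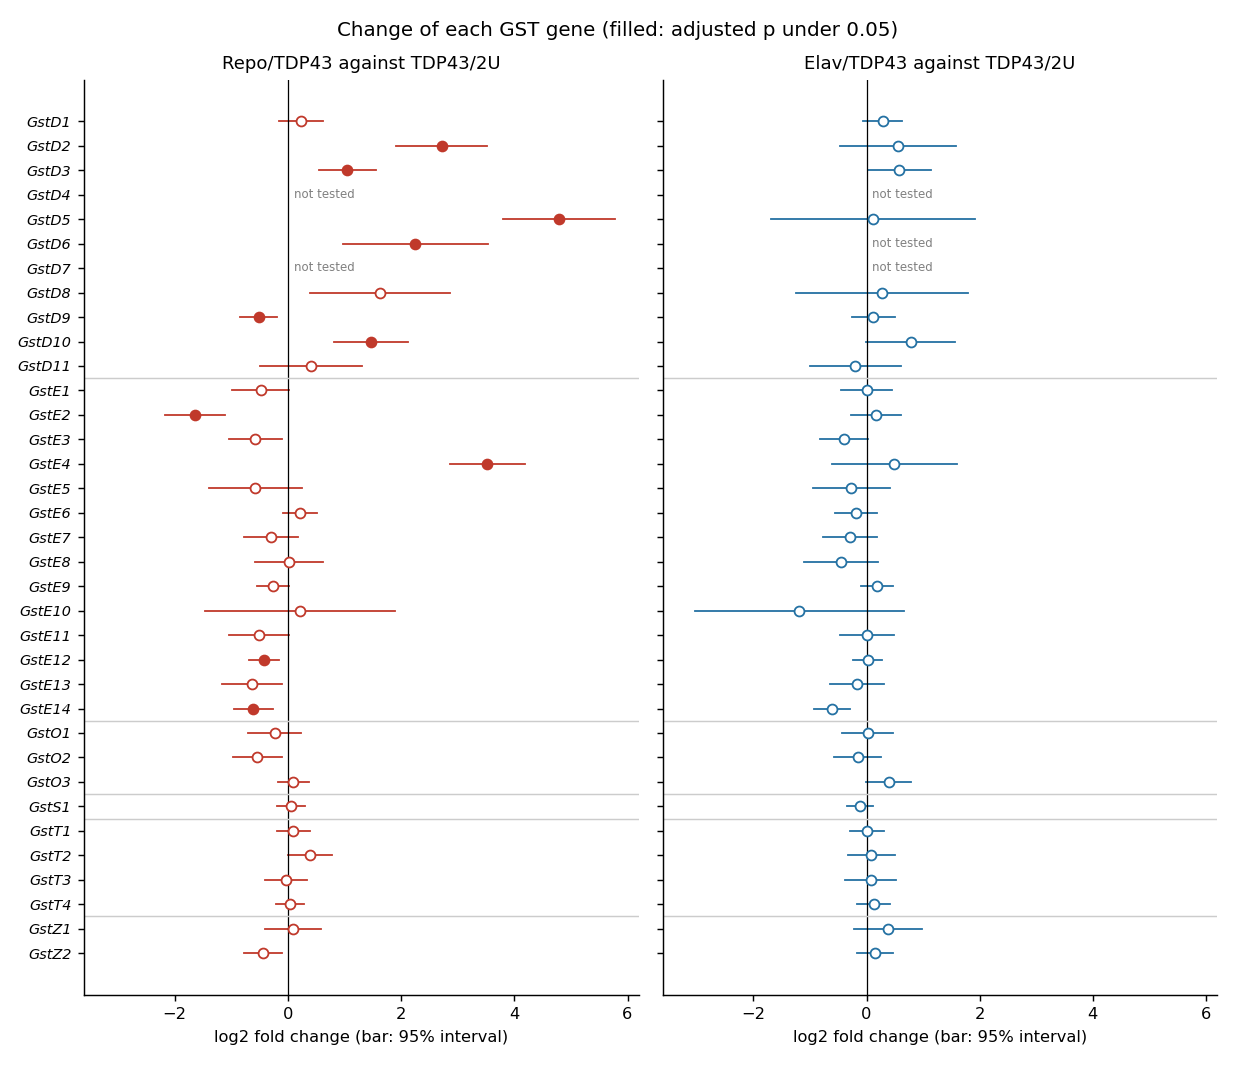
Log2 fold change of each GST gene (rows, grouped by class) in Repo/TDP43 heads (left) and Elav/TDP43 heads (right) against TDP43/2U heads, with 95% intervals. Filled points have an adjusted p under 0.05: there are 10 on the left and 0 on the right, and the largest is GstD5 at 4.79.

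GstD5, a delta class gene, had the largest fold change of the family. It was at 6.79 and 6.22 CPM in Repo/TDP43 heads, against 0.352 and 0.131 CPM in TDP43/2U heads. The groups lay far apart, and the control values came from few reads. The fold was 27.7 (log2 fold change 4.79, SE 0.41, adjusted p = 0.00128), the 21st largest of the 2066 features called higher. GstD2, its paralog a few genes away, was at 7.21 and 5.92 CPM in Repo/TDP43 heads, against 0.704 and 1.28 CPM in TDP43/2U heads. Both Repo/TDP43 values were well above both controls (log2 fold change 2.71, SE 0.34, adjusted p = 0.00443). GstD6 had low counts throughout, with 22 and 14 counts in the Repo/TDP43 libraries, against 4 and 5 counts in the TDP43/2U libraries. Its log2 fold change was 2.25 (SE 0.53, adjusted p = 0.0247), a call that any left-out library ended (adjusted p from 0.0595 without S14 to 0.184 without S05), as did DESeq2 (0.0969) and the fit of all 6 libraries (0.0542).

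GstD10 and GstD3 rose less. GstD10 was at 3.58 and 4.21 CPM in Repo/TDP43 heads, against 1.28 and 1.54 CPM in TDP43/2U heads, without overlap (log2 fold change 1.47, SE 0.27, adjusted p = 0.0132). GstD3 was at 10.03 and 8.13 CPM in Repo/TDP43 heads, against 3.87 and 4.95 CPM in TDP43/2U heads, again without overlap (log2 fold change 1.05, SE 0.21, adjusted p = 0.0160). Both calls were lost without either Repo/TDP43 library, at adjusted p = 0.0828 without S05 and 0.104 without S06 for GstD10, and 0.148 without S05 and 0.0570 without S06 for GstD3. GstD8 had a log2 fold change of 1.63 and missed the threshold (adjusted p = 0.0579). It passed with library size alone (0.0447), upper-quartile factors (0.0467), all 6 libraries in the fit (0.0436) and without S15 (0.0372).

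GstD7 and GstD4 had too few counts to pass the filter. GstD7 had 6 and 9 counts in the Repo/TDP43 libraries, against 0 and 0 counts in the TDP43/2U libraries, which made it at least 6.93-fold higher after scaling for library size when the controls are set to a floor of 3 counts over the group. With no filter it passed the test (adjusted p = 0.0350). The controls are at 0 counts there, so no fold from that fit is given. That call did not hold across the fits that left out a library. GstD4 had 0 and 5 counts in the Repo/TDP43 libraries, against 1 and 2 counts in the TDP43/2U libraries, a ratio of 2.31 with a 95% counting interval of 0.449 to 14.9. For GstD4 a difference was not detectable at this depth.

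GstD1 is the delta gene best known for DDT resistance and as a reporter of CncC activity, and it had the most counts of its class. It was at 167 and 149 CPM in Repo/TDP43 heads, against 115 and 156 CPM in TDP43/2U heads. The groups overlapped, and the log2 fold change of 0.23 (95% interval -0.15 to 0.61, adjusted p = 0.318) did not pass the test. Without S15, the higher control, it was 0.48 with an adjusted p of 0.00112. GstD9, which lies beside GstD1, was the delta gene that was lower, at 8 and 8.22 CPM in Repo/TDP43 heads, against 11.6 and 11.7 CPM in TDP43/2U heads (log2 fold change -0.51, SE 0.14, adjusted p = 0.0357). That call was lost without S05 (adjusted p = 0.252), without S06 (0.216), with library size alone (0.125), with upper-quartile factors (0.0832) and with DESeq2 (0.0541). GstD11 had a log2 fold change of 0.41 and was not called (adjusted p = 0.448).

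The delta class sum followed GstD1, which held 80.6% and 80.5% of it in the Repo/TDP43 libraries, against 85.4% and 87.7% in the TDP43/2U libraries. With GstD1 set aside, the other delta genes summed to 40.1 and 36.3 CPM in Repo/TDP43 heads, against 19.7 and 21.9 CPM in TDP43/2U heads. In Elav/TDP43 heads they summed to 22.4 and 28.5 CPM.

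**Figure D2:**
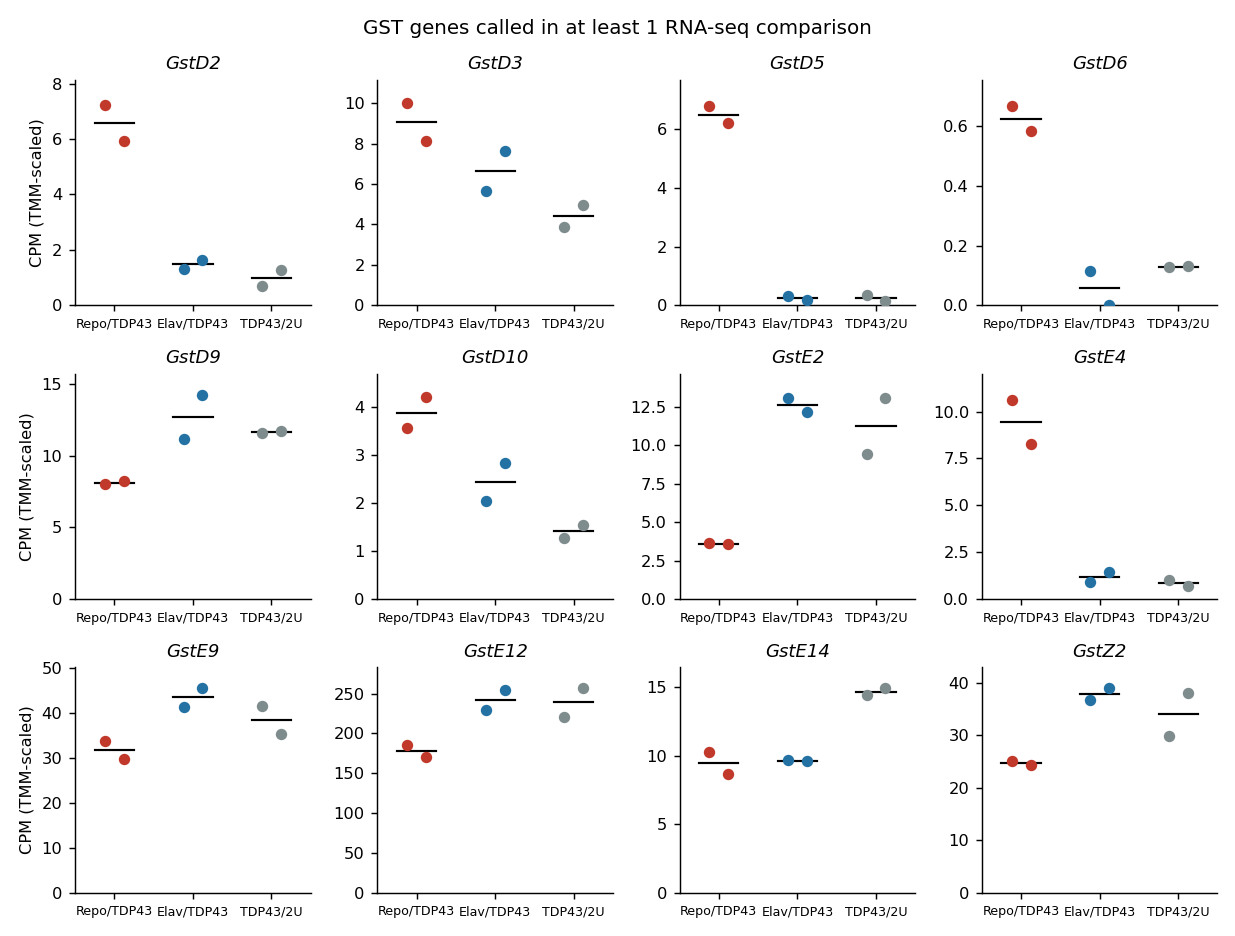
Normalised read counts (CPM, TMM-scaled, axes from 0) of the 12 GST genes called in at least 1 RNA-seq comparison, 1 point per library and a line at the mean of each genotype. GstD2, GstD5, GstD6 and GstE4 stand high in Repo/TDP43 heads alone, and GstE2 stands low there (3.64 and 3.55 CPM).

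In the epsilon class 1 gene rose and 3 fell. GstE4 was at 10.6 and 8.26 CPM in Repo/TDP43 heads, against 0.992 and 0.680 CPM in TDP43/2U heads. It was 11.5-fold higher, with no overlap (log2 fold change 3.52, SE 0.27, adjusted p = 0.000989). GstE2, which lies in the same run of genes, went the other way. It was at 3.64 and 3.55 CPM in Repo/TDP43 heads, against 9.41 and 13.1 CPM in TDP43/2U heads, 3.11-fold lower (log2 fold change -1.64, SE 0.22, adjusted p = 0.00557). This was the 94th largest difference of the 1695 features called lower.

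GstE12 and GstE14 fell by smaller amounts. GstE12, the epsilon gene with the most counts, was at 185 and 170 CPM in Repo/TDP43 heads, against 221 and 258 CPM in TDP43/2U heads (log2 fold change -0.42, SE 0.11, adjusted p = 0.0340). With library size alone its log2 fold change was -0.25 (adjusted p = 0.0923), and the call was also lost with upper-quartile factors (0.0680), without S05 (0.178) and without S06 (0.283). GstE14, also called noppera-bo, is needed for the synthesis of the steroid hormone ecdysone. It was at 10.3 and 8.68 CPM in Repo/TDP43 heads, against 14.4 and 14.9 CPM in TDP43/2U heads, without overlap (log2 fold change -0.61, SE 0.14, adjusted p = 0.0247). That call was lost without S05 (0.115), without S06 (0.212) and with library size alone (0.0751). The 10 epsilon genes that were not called had log2 fold changes of -0.64 to 0.21.

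The omega, sigma, theta and zeta genes were not called in this comparison, with log2 fold changes of -0.54 (GstO2) to 0.39 (GstT2). GstS1, the sigma GST known for its abundance in flight muscle, was at 83.3 and 74.0 CPM in Repo/TDP43 heads, against 72.5 and 80.1 CPM in TDP43/2U heads. These ranges overlapped, and the 95% interval of the log2 fold change was -0.19 to 0.30. GstT4, the theta gene with the most counts, was at 28.4 and 30.5 CPM in Repo/TDP43 heads, against 31.0 and 27.2 CPM in TDP43/2U heads, also overlapping (interval -0.22 to 0.28). The omega class includes thiol transferases and dehydroascorbate reductases. GstO2, its member with the most counts, was at 29.8 and 29.3 CPM in Repo/TDP43 heads, against 35.3 and 51.2 CPM in TDP43/2U heads (log2 fold change -0.54, adjusted p = 0.0682). The zeta class includes the maleylacetoacetate isomerase of tyrosine breakdown. GstZ2 was at 25.2 and 24.4 CPM in Repo/TDP43 heads, against 29.95 and 38.05 CPM in TDP43/2U heads (log2 fold change -0.45, adjusted p = 0.0561). Without S14, both passed the test, at -0.82 for GstO2 (adjusted p = 2.58e-05) and -0.64 for GstZ2 (adjusted p = 0.000226).

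The called genes did not form unbroken blocks along the chromosome. On chromosome arm 3R the delta genes follow each other in the order GstD10, GstD9, GstD1, GstD2, GstD3, GstD4, GstD5, GstD6, GstD7, GstD8 and GstD11, interrupted by a noncoding RNA gene after GstD1 and by CG10035 before GstD11. GstD9, which was lower, and GstD1, which was not called, lie between GstD10 and GstD2, which were both higher. From GstD2 to GstD8 every tested gene had a positive log2 fold change. These were 2.71 for GstD2, 1.05 for GstD3, 4.79 for GstD5, 2.25 for GstD6 and 1.63 for GstD8, which was not called. GstD4 and GstD7, which lie within this stretch, were not tested. On chromosome arm 2R the run is GstE10, GstE1, GstE2, GstE3, GstE4, GstE5, GstE6, GstE7, GstE8 and GstE9, with CR43687 and CR43688 between GstE3 and GstE4. GstE3 and GstE5, the GST genes on either side of GstE4, had log2 fold changes of -0.58 (adjusted p = 0.0712) and -0.58 (adjusted p = 0.249), against 3.52 for GstE4. GstE11 to GstE14, GstS1, GstT1 and GstT2 lie elsewhere on 2R, the omega genes on 3L, GstT3 and GstT4 on X, and the zeta genes on 3R.

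**Figure D3:**
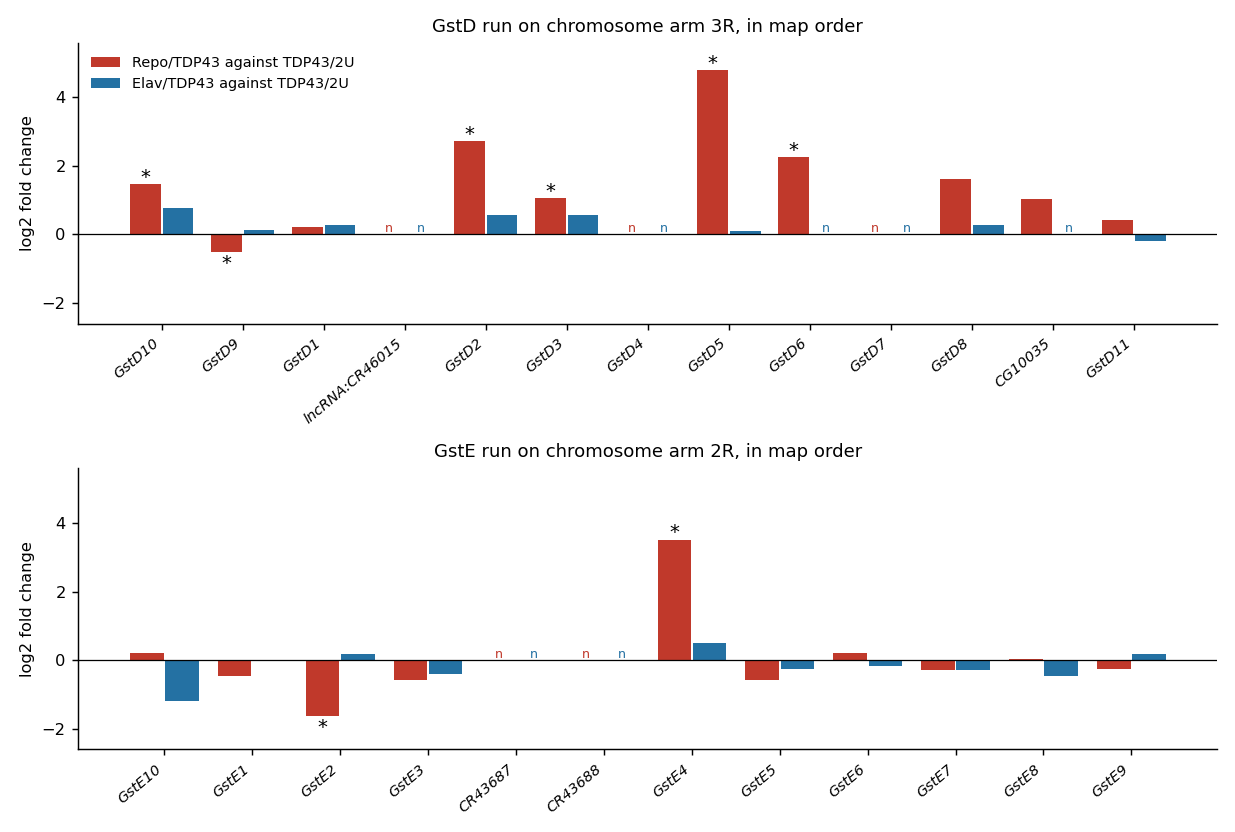
Log2 fold change of the genes of the GstD run on 3R (top) and the GstE run on 2R (bottom) in map order, in Repo/TDP43 (red) and Elav/TDP43 (blue) heads against TDP43/2U heads. Stars mark an adjusted p under 0.05 and n marks a gene that was not tested: the bar of GstE4 (3.52) stands between the low bars of GstE3 and GstE5 (-0.58 each).

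Elav/TDP43 heads gave no call in the family against TDP43/2U heads, which lack the driver here too. Of 32 members tested in Elav/TDP43 against TDP43/2U heads, 0 passed with edgeR, beside 0.927% of all 12942 features tested (0.487% higher, 0.44% lower). At so low a share, 0 calls among 32 members says little about the family. DESeq2 also called 0, and 2 members had an unadjusted p under 0.05 with edgeR. GstE14 was at 9.69 and 9.60 CPM in Elav/TDP43 heads, against 14.4 and 14.9 CPM in TDP43/2U heads (log2 fold change -0.60, SE 0.13, adjusted p = 0.129). Its level was thus below both controls in each of the 4 driver libraries, which share these controls. GstD3, the other of these 2, was at 5.64 and 7.61 CPM in Elav/TDP43 heads, against 3.87 and 4.95 CPM in TDP43/2U heads (log2 fold change 0.58, SE 0.23, adjusted p = 0.533). By class, 7 of 8 tested delta members had a positive log2 fold change (median 0.28), and 6 of 14 epsilon members (median -0.17).

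The members with the largest changes under the glial driver were not called under the neuronal driver, but several intervals were wide. GstD5 was at 0.312 and 0.191 CPM in Elav/TDP43 heads, against 0.352 and 0.131 CPM in TDP43/2U heads, and at these counts the 95% interval of the log2 fold change was wide (-1.69 to 1.92). GstE4 was at 0.906 and 1.45 CPM in Elav/TDP43 heads, against 0.992 and 0.680 CPM in TDP43/2U heads (interval -0.61 to 1.597). GstE2 was at 13.1 and 12.2 CPM in Elav/TDP43 heads, against 9.41 and 13.1 CPM in TDP43/2U heads (interval -0.27 to 0.60). GstD2 and GstD10 had log2 fold changes of 0.56 (interval -0.48 to 1.59) and 0.78 (interval -0.01 to 1.57). The count of calls depended on the controls: without S14 it was 3, all lower (GstE3, GstE14 and GstO2), and without S15 it was 1, GstD1, which was higher (log2 fold change 0.53, adjusted p = 0.00250).

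The drivers were also set against each other directly, in a fit over all 6 libraries. Of 33 members tested, 4 were higher and 5 lower in Repo/TDP43 than in Elav/TDP43 heads, 27.3% of those tested beside 24% of all 13699 features (10.7% higher, 13.3% lower). The higher genes were GstD2, GstD5, GstD6 and GstE4. GstD5 and GstD6 passed the count filter only through their Repo/TDP43 libraries here too, so they could not have entered as lower. The count of higher calls is thus partly set by the filter. GstD5 was 24.9-fold higher (log2 difference 4.64, SE 0.44, adjusted p = 0.000442). GstE4 was 8.11-fold higher (log2 difference 3.02, SE 0.31, adjusted p = 0.000663), and GstD2, at 7.21 and 5.92 CPM in Repo/TDP43 heads, against 1.30 and 1.65 CPM in Elav/TDP43 heads, was 4.48-fold higher (log2 difference 2.16, SE 0.32, adjusted p = 0.00312). Neither GstD3 (log2 difference 0.46, 95% interval -0.04 to 0.96, adjusted p = 0.157) nor GstD10 (0.68, interval 0.04 to 1.32, adjusted p = 0.110) passed this test, so a difference between the drivers was not shown for them. For GstD6, with 22 and 14 counts in the Repo/TDP43 libraries, against 4 and 0 counts in the Elav/TDP43 libraries, the log2 difference of 3.23 (SE 0.85, adjusted p = 0.0303) was 2.44 without S12 (adjusted p = 0.116). Without S11 the Elav/TDP43 group is at 0 counts, so no fold is given. The call was also lost without S05 (0.151) and without S06 (0.117).

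The genes that were lower under the glial driver than under the neuronal driver were GstE2, GstD9, GstZ2, GstE9 and GstE12. GstE2 was 3.51-fold lower, at 3.64 and 3.55 CPM in Repo/TDP43 heads, against 13.1 and 12.2 CPM in Elav/TDP43 heads (log2 difference -1.81, SE 0.19, adjusted p = 0.000711). The other 4 differed by less than 1 on the log2 scale. GstZ2 was at 25.2 and 24.4 CPM in Repo/TDP43 heads, against 36.7 and 39.1 CPM in Elav/TDP43 heads (log2 difference -0.61, SE 0.12, adjusted p = 0.0106). GstE9 was at 33.9 and 29.7 CPM in Repo/TDP43 heads, against 41.4 and 45.7 CPM in Elav/TDP43 heads (-0.45, SE 0.11, adjusted p = 0.0256). GstD9 and GstE12 differed by -0.65 (adjusted p = 0.0206) and -0.45 (adjusted p = 0.0161). No values overlapped for these genes, but the same held for 26 of all 35 members in this comparison, so it adds little. The share of all features without overlap was not counted. Fewer than the 9 calls were left whichever of S05, S06, S11 and S12 was left out.

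GstD2, GstD5, GstE4 and GstE2 were the members that held in every setting tried that tested them. For Repo/TDP43 against TDP43/2U, the 11 alternatives gave GstD2 log2 fold changes of 2.33 to 3.24 (adjusted p up to 0.0350), GstE4 3.27 to 3.77 (up to 0.00885) and GstE2 -1.89 to -1.37 (up to 0.0467). GstD5 was tested in 10 of them, with 4.21 to 5.57 (up to 0.00953). A stricter adjusted p of 0.01 left these same 4 genes in each of the comparisons with Repo/TDP43.

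The regulators of the antioxidant response and the enzymes that make glutathione were read beside the family. The cnc gene, which encodes CncC, was at 503 and 504 CPM in Repo/TDP43 heads, 468 and 484 CPM in Elav/TDP43 heads, and 454 and 442 CPM in TDP43/2U heads. Its log2 fold change in Repo/TDP43 against TDP43/2U heads was 0.18 (SE 0.08, adjusted p = 0.131). Keap1, its inhibitor, differed by 0.05 (adjusted p = 0.775) and maf-S, its partner, by -0.29 (adjusted p = 0.436) in the same comparison. RNA levels of these genes do not report the activity of the protein. Of a list of 12 CncC/Keap1 pathway genes, 0 were higher and 3 lower in Repo/TDP43 heads with edgeR, with the same counts from DESeq2, and 6 had an unadjusted p under 0.05. The list's median log2 fold change was -0.16, beside 0.00 over all features, of which 15.3% were higher and 12.5% lower. The 3 lower genes were Gclm, the P450 gene Cyp6a2 (-0.36, adjusted p = 0.0214) and the epoxide hydrolase gene Jheh1 (-0.62, adjusted p = 0.0155), the last 2 named after their values were seen. In Elav/TDP43 heads 0 of the 12 passed with edgeR, 2 had an unadjusted p under 0.05 and DESeq2 called 1.

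The subunits of glutamate-cysteine ligase, which catalyses the first step of glutathione synthesis, did not move together. Gclm, the modifier subunit, was at 63.8 and 69.0 CPM in Repo/TDP43 heads, against 107 and 97.4 CPM in TDP43/2U heads (log2 fold change -0.61, SE 0.09, adjusted p = 0.00681). Gclc, the catalytic subunit, was at 127 and 128 CPM in Repo/TDP43 heads, against 109 and 110 CPM in TDP43/2U heads. The Gclc values lay apart, but the log2 fold change of 0.23 missed the threshold (adjusted p = 0.0669), whereas its difference of 0.25 against Elav/TDP43 heads passed (adjusted p = 0.0338). GSS, the glutathione synthetase of the second step, was at 9.67 and 9.80 CPM in Repo/TDP43 heads and at 25.7 and 25.5 CPM in Elav/TDP43 heads, against 17.8 and 15.8 CPM in TDP43/2U heads. It was lower in Repo/TDP43 against TDP43/2U heads (log2 fold change -0.77, adjusted p = 0.00952) and not called in Elav/TDP43 heads (0.61, adjusted p = 0.0880). The GSS row is identical to that of a second gene in the table, a near-identical copy, so its counts cannot be given to either of them alone.

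Of 15 tested genes on the list of glutathione synthesis and thiol enzymes, 3 were higher and 4 lower in Repo/TDP43 against TDP43/2U heads, with a median log2 fold change of 0.10, beside 15.3% higher and 12.5% lower over all features. DESeq2 called 2 higher and 4 lower. Besides Gclm and GSS, CG4829 (-1.604) and CG14407 (-0.68) were lower. The 3 higher genes were the thioredoxin reductase gene Trxr-2 (2.25), the testis thioredoxin gene TrxT (2.16) and the glutaredoxin gene Grx-1 (2.26), and all 5 of these further genes were named after their values were seen. TrxT was at 10.1 and 7.13 CPM in Repo/TDP43 heads, against 2.34 and 1.596 CPM in TDP43/2U heads. Trxr-2 was at 1.73 and 1.29 CPM in Repo/TDP43 heads, against 0.384 and 0.262 CPM in TDP43/2U heads. Grx-1 was at 1.12 and 0.542 CPM in Repo/TDP43 heads, against 0.256 and 0.105 CPM in TDP43/2U heads. Trxr-2 and Grx-1 passed the count filter only through their Repo/TDP43 libraries, so they could not have entered as lower. The count of higher genes is thus partly set by the filter. In Elav/TDP43 heads 0 of 14 tested passed with edgeR, 2 had an unadjusted p under 0.05 and DESeq2 called 1.

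Among 6 genes related to GSTs that the symbol rule leaves out, sepia (se) had the largest difference. It encodes an omega class enzyme that acts in the synthesis of the red eye pigments. It was at 6.49 and 5.42 CPM in Repo/TDP43 heads and at 11.5 and 12.2 CPM in Elav/TDP43 heads, against 28.6 and 33.7 CPM in TDP43/2U heads. No genotype overlapped with another. The log2 fold change was -2.37 (SE 0.16, adjusted p = 0.000509) in Repo/TDP43 heads and -1.40 (SE 0.13, adjusted p = 0.00715) in Elav/TDP43 heads, both against TDP43/2U heads, and the drivers differed by -0.98 (adjusted p = 0.00293). The eye color marker w moved in the other direction across these genotypes, as given above, and its part in the se values was not tested. The microsomal gene Mgstl was lower in Repo/TDP43 against TDP43/2U heads (-1.01, adjusted p = 0.0109) and Clic, a chloride channel gene with a GST fold, was higher (0.58, adjusted p = 0.0103). Both were named after their values were seen.

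**Figure D4:**
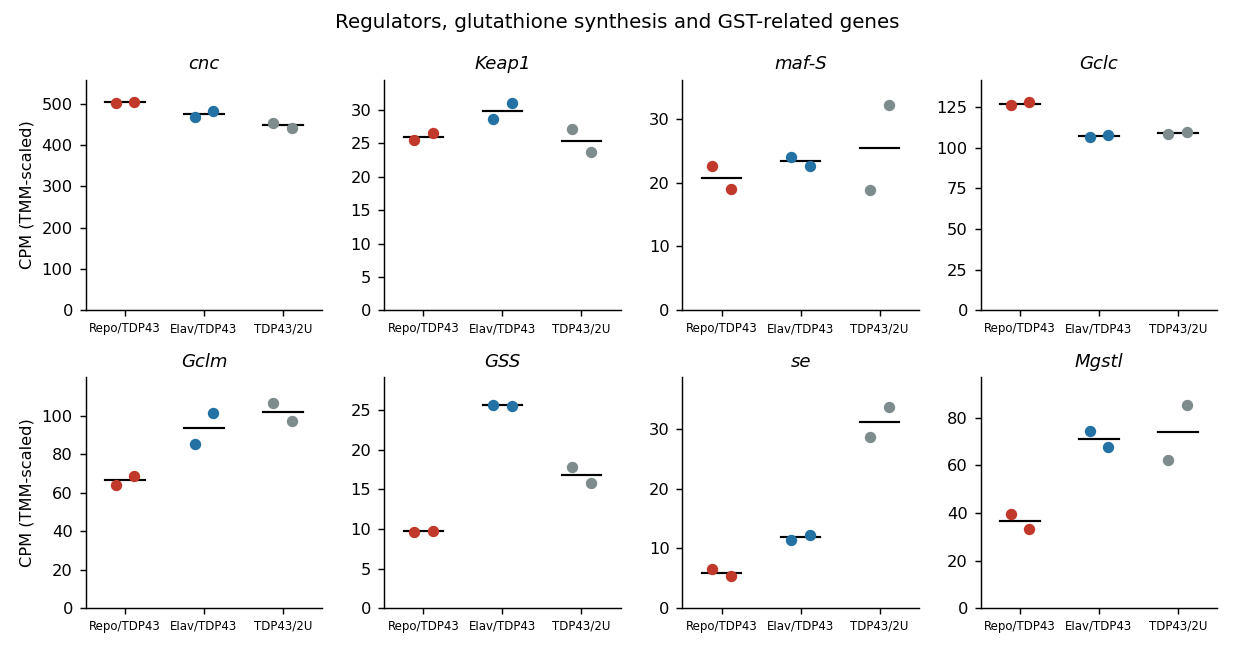
Normalised read counts (CPM, TMM-scaled, axes from 0) of the regulators cnc, Keap1 and maf-S, the glutathione synthesis genes Gclc, Gclm and GSS, and the GST-related genes se and Mgstl, 1 point per library and a line at the mean. The se gene is lowest in Repo/TDP43 heads (6.49 and 5.42 CPM) and highest in TDP43/2U heads, while cnc differs little.

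Other detoxification families were also called in both directions. Of 77 cytochrome P450 rows tested, 13 were higher and 18 lower in Repo/TDP43 against TDP43/2U heads, and 10 higher and 22 lower against Elav/TDP43 heads. Over all features the shares were 15.3% higher and 12.5% lower in the first comparison, and 10.7% higher and 13.3% lower in the second. Of 13 UDP-glycosyltransferase rows tested, 3 were higher and 1 lower against TDP43/2U heads, and 4 higher and 1 lower against Elav/TDP43 heads.

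Markers of several head cell types differed between Repo/TDP43 and TDP43/2U heads as well. Over all features 15.3% were higher and 12.5% lower in this comparison. Of 6 hemocyte markers 4 were higher and 1 lower, and they summed to 578 to 655 CPM in Repo/TDP43 heads, against 357 to 394 CPM in TDP43/2U heads. Most of this sum was Hml, at 440 and 504 CPM in Repo/TDP43 heads, against 252 and 198 CPM in TDP43/2U heads. The lower marker was srp, at 94.4 and 95.1 CPM in Repo/TDP43 heads, against 112.5 and 132.3 CPM in TDP43/2U heads. The 10 fat body markers, with 5 of 9 tested lower, summed to 229.7 to 257.9 CPM in Repo/TDP43 heads, against 1009 to 1067 CPM in TDP43/2U heads. Gut markers, with 1 of 6 tested higher, summed to 39.0 to 74.4 CPM in Repo/TDP43 heads, against 11.5 to 26.0 CPM in TDP43/2U heads. Of 8 neuronal markers 6 were lower, and of 9 glial markers 3 were higher and 3 lower. Photoreceptor markers were lower in 4 of 9 and muscle markers in 2 of 6. Both male-specific roX markers were uncalled with edgeR and DESeq2, and 0 of them had an unadjusted p under 0.05. Of 3 yolk protein genes, which mark females and are also fat body markers, Yp3 was lower (-0.31, adjusted p = 0.0414). Against TDP43/2U heads, Yp1 was higher in Elav/TDP43 heads (2.02, adjusted p = 0.0270), and all 3 were lower in Repo/TDP43 than in Elav/TDP43 heads, where they summed to 33.9 to 35.9 CPM in Repo/TDP43 heads, against 65.8 to 69.6 CPM in Elav/TDP43 heads. None of the markers on these lists was at 0 counts in both libraries of a genotype. Their part in the GST values was not tested.

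Small RNA reads on GST exons gave a second readout of the glial genotype, in other libraries and against another control. The small RNA table counts reads on single exons, without strand for these rows, and its 137 GST exon rows covered the 35 genes. Of 34 rows tested, over 21 genes, 5 rows of 4 genes were higher and 0 lower in Repo/TDP43 against Repo/2U heads. These were 14.7% of the rows tested, beside 9.66% of all 19681 exon rows tested, 6.73% higher and 2.93% lower. DESeq2 also called 0 rows lower, and with edgeR 1 lower row, on GstE14, had an unadjusted p under 0.05. All 5 called rows lay in the delta class, where 6 rows were tested. The rows of GstD2, GstD3 and GstD5 passed the count filter only through their Repo/TDP43 libraries, so they could not have entered as lower. Outside it, exon 4 of the theta gene GstT4 had 75, 101 and 96 reads in the Repo/TDP43 libraries, against 47, 38 and 35 reads in the Repo/2U libraries, without overlap (log2 fold change 1.02, SE 0.31, adjusted p = 0.0785). It passed with library size alone (adjusted p = 0.0461) and without S22 (0.00166), and a GstE6 row also passed without S22 (0.0176).

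The GstD2 exon had the largest difference, with 159, 135 and 123 reads in the Repo/TDP43 libraries, against 7, 7 and 3 reads in the Repo/2U libraries. It was 20.7-fold higher (log2 fold change 4.37, SE 0.31, adjusted p = 0.000290), and no values overlapped. The GstD5 exon had 32, 21 and 19 reads in the Repo/TDP43 libraries, against 7, 3 and 4 reads in the Repo/2U libraries (log2 fold change 2.09, SE 0.24, adjusted p = 0.00119), again without overlap. These 2 rows held in each of the 9 alternatives that tested them, with 4.02 to 4.65 for GstD2 and 1.94 to 2.38 for GstD5.

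GstD3 and GstD1 followed with smaller differences. The GstD3 exon had 22, 18 and 13 reads in the Repo/TDP43 libraries, against 2, 5 and 9 reads in the Repo/2U libraries (log2 fold change 1.46, SE 0.38, adjusted p = 0.0451). Exon 2 of GstD1, listed once for each of 2 transcripts, had 202, 144 and 169 reads in the Repo/TDP43 libraries, against 100, 75 and 73 reads in the Repo/2U libraries (log2 fold change 0.84, SE 0.20, adjusted p = 0.0291). These calls were less firm. GstD3 lost its call with library size alone, with DESeq2 and without any library other than S21, and GstD1 in 7 of 10 alternatives for the transcript given here. The number of called rows was 2 without S19, 2 without S20, 3 without S21, 2 without S23 and 2 without S24.

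The untested GstD4 exon had 12, 10 and 11 reads in the Repo/TDP43 libraries, against 3, 2 and 2 reads in the Repo/2U libraries. The GstD7 exon had 11, 6 and 2 reads in the Repo/TDP43 libraries, against 2, 1 and 0 reads in the Repo/2U libraries, which touched at 2 reads. GstE4 and GstE2, which changed in the RNA-seq, had no called small RNA row. GstE4 had 29, 20 and 9 reads in the Repo/TDP43 libraries, against 7, 14 and 13 reads in the Repo/2U libraries, overlapping (log2 fold change 0.50, adjusted p = 0.522). GstE2 had 14, 12 and 9 reads in the Repo/TDP43 libraries, against 15, 16 and 13 reads in the Repo/2U libraries (-0.58, adjusted p = 0.296). Exon reads as a whole were 6.75%, 4.82% and 4.38% of the small RNA counts in the Repo/TDP43 libraries, against 4.59%, 3.63% and 4.94% in the Repo/2U libraries. The read lengths are not in the table, so small regulatory RNAs and fragments of messenger RNA cannot be told apart.

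**Figure D5:**
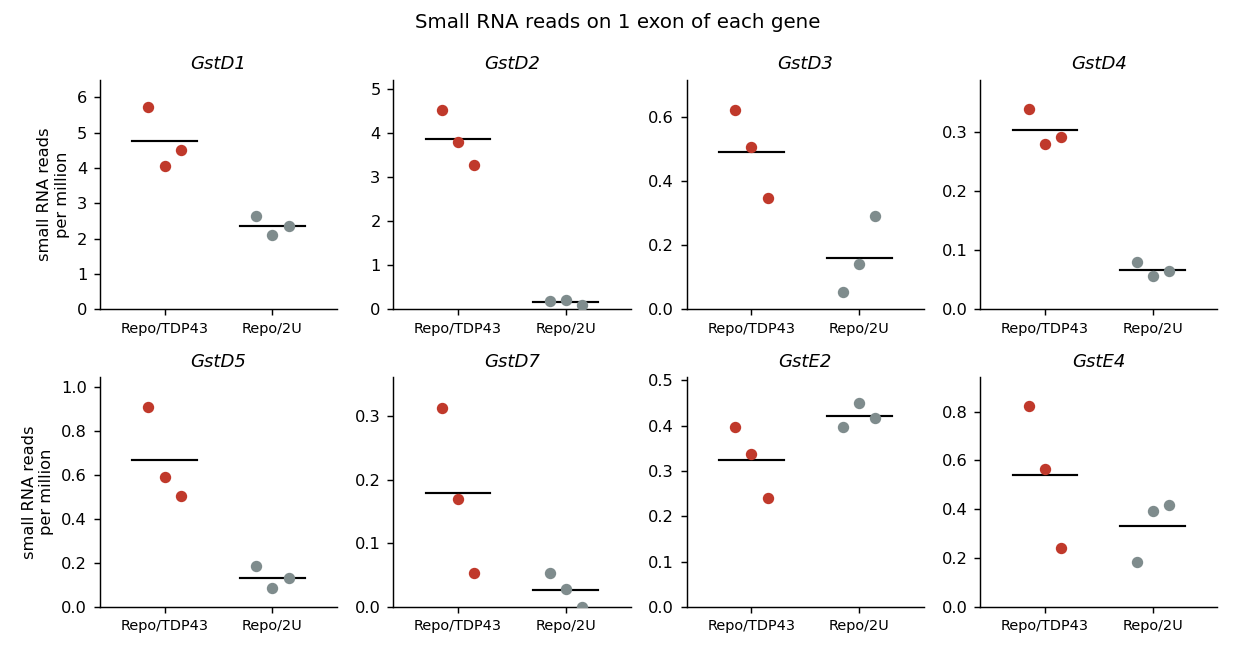
Small RNA reads on 1 exon, divided by library size (RPM), of each of 8 GST genes in Repo/TDP43 (left) and Repo/2U (right) libraries, 3 points per genotype and a line at the mean, axes from 0. The groups lie apart for GstD1, GstD2, GstD3, GstD4 and GstD5, and overlap for GstE4.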

How the data were processed

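Head RNA-seq (6 libraries, 3 genotypes) and small RNA (6 libraries, 2 genotypes) were analysed. The authors aligned reads with STAR (build dm3), removed those on ribosomal RNAs, and deposited whole-number counts per RefSeq gene and FlyBase transposon made with TEtranscripts. Small RNA counts were deposited per annotated feature, and those rows named as exons were used. The tables were not normalized. Samples were grouped by their labels, and 0 columns were left unused. RNA-seq totals were 22476024 to 41150009 and small RNA totals 31074082 to 37736599.

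Counts were tested with edgeR 4.0.16 (R 4.3.3): filterByExpr with a minimum count of 10, TMM factors, quasi-likelihood F-test, and Benjamini-Hochberg adjustment over all features, called under 0.05. SE is the log2 fold change divided by the square root of F, and intervals are 95%. Each driver was compared with TDP43/2U in a fit of 4 libraries, so both comparisons share controls. The drivers were compared in a fit of 6. Alternatives were library size alone, upper-quartile factors, DESeq2 1.42.0, other count filters, other sets of libraries, a threshold of 0.01 and leaving out each library.

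The members and lists were chosen with earlier results of these data known. Every member called in at least 1 RNA-seq comparison, and the most counted member of each class, was given by library. From the lists, the regulators, the glutathione synthesis enzymes and se were named. Exon rows were matched to genes by transcript accession and gene order was taken from a RefSeq annotation of a later build, so no coordinates are given. The study describes the RNA-seq replicates as biological, from independent libraries, and the labels do not say whether they came from separate cultures, so p-values measure the spread between these libraries. Intervals on counts cover counting error only.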

Additional observations from a re-analysis of the deposited data

Results flagged for a closer look

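The direct test of Repo/TDP43 against Elav/TDP43 heads picked out 9 members. No RNA-seq library carried a driver without the transgene, so a difference between the driver lines and a difference in the effect of the transgene cannot be told apart. The log2 differences were 4.64 for GstD5, 3.23 for GstD6, 3.02 for GstE4 and 2.16 for GstD2, which were higher under the glial driver. They were -1.81 for GstE2, -0.65 for GstD9, -0.61 for GstZ2, -0.45 for GstE9 and -0.45 for GstE12, which were lower. Only GstD5, GstE4, GstD2 and GstE2 kept their call in every alternative that tested them. GstD5 and GstD6 passed the count filter only through their Repo/TDP43 libraries, so they could not have entered as lower.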

How the results depend on the processing

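No gene or exon row that was called changed direction under an alternative that tested it. For Repo/TDP43 against TDP43/2U, 10 GST genes were called, 4 at an adjusted p under 0.01 and 4 to 15 when 1 library was left out. For Elav/TDP43 against TDP43/2U, 0 were called, and 0 to 3 when 1 library was left out. For Repo/TDP43 against Elav/TDP43, 9 were called, 4 at an adjusted p under 0.01 and 4 to 6 when 1 library was left out. For small RNA, 5 exon rows were called, 3 with library size alone, 3 with DESeq2, 2 with at least 10 counts in every library and 2 to 6 when 1 library was left out. Where leaving out a library left 1 in a group, that library was assumed to vary like the others.

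Library size alone moved the median log2 fold change of all genes by 0.17 in Repo/TDP43 against TDP43/2U and by 0.14 in Repo/TDP43 against Elav/TDP43, and upper-quartile factors moved them by 0.12 and 0.13. Calls of under 1 on the log2 scale should be read against these shifts. In Repo/TDP43 against Elav/TDP43 the higher and lower calls were 4 and 5, but 6 and 3 with library size alone. Of the gene values recomputed, 80 kept and 28 lost their call for Repo/TDP43 against TDP43/2U, 71 and 26 for Repo/TDP43 against Elav/TDP43, and 27 and 20 for small RNA. Counting identical exon rows once, an alternative chosen after seeing the data, left 5 small RNA rows. It could not merge the rows of GstD1 exon 2, whose counts differ slightly between transcripts, so that exon stayed counted for each transcript. No paired analysis was possible because library names are not shared between genotypes. Depth limits GstD4, GstD6 and GstD7, which had at most 22 counts in any library.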
